A study of Rattus norvegicus with 6 samples.

Results

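The Gadd45 family consists of the growth arrest and DNA damage-inducible genes Gadd45a, Gadd45b and Gadd45g. Its members were found by their symbols in the deposited count table, where 3 of 18930 rows carried them. All 3 were among the 11870 genes with enough reads to be tested. NRK-52E cells are an established rat line of kidney epithelial origin with a WT genotype. RNA was sequenced from 3 samples given vehicle (Control) and 3 samples given streptozotocin (STZ), a nitrosourea that alkylates DNA, at 10 mM for 24 h. STZ was dissolved in dimethyl sulfoxide. The study used this comparison to look for signaling behind the toxicity of STZ to tubular cells. The labels do not say whether the samples of a group were separate cultures, so the p-values measure the spread between these samples, which may be technical.

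Gadd45 proteins are small, acidic, mostly nuclear proteins without known enzyme activity, and they act by binding other proteins. They switch on the kinase MTK1 (Map3k4) upstream of p38 and JNK, interfere with the Cdk1 and cyclin B1 complex at entry into mitosis, and bind p21 and PCNA. Gadd45a is a textbook p53 target, while Gadd45b responds to NF-kB and TGF-beta, and Gadd45 genes are also induced by hypertonic stress in cells of the renal medulla.

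The promoters are shown because Gadd45a and Gadd45g both rose after STZ and Gadd45b did not pass the test, so that the letters before each start can be set side by side. All 3 promoters were found in the RefSeq table of build GRCr8, which is not the build to which the authors mapped their reads. No position from the deposited table was used. Each sequence holds the 250 bases before the annotated start of transcription, on the minus strand of the chromosome, and is written 5′ to 3′. The spans are chr4:97486800-97487049 for Gadd45a, chr7:9430719-9430968 for Gadd45b and chr17:13530352-13530601 for Gadd45g. Capitals mark matches to the motifs searched on both strands.
Gadd45a: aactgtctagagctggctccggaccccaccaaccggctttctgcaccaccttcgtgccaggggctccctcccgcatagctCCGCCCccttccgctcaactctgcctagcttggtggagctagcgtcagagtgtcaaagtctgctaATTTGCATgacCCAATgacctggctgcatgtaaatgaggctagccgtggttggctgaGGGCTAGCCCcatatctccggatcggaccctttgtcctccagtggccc
Gadd45b: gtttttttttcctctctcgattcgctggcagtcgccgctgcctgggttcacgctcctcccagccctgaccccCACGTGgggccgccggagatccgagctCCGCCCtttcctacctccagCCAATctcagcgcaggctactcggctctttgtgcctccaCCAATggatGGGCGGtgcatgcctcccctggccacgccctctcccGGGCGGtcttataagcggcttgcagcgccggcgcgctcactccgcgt
Gadd45g: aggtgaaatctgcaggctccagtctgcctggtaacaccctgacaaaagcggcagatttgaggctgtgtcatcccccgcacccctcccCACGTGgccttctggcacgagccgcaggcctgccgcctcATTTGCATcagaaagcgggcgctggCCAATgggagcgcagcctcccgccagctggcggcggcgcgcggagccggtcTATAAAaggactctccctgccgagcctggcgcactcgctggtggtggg
The motifs were the TATA box TATAAA, the CCAAT box CCAAT, the octamer ATTTGCAT, the GC box GGGCGG, the cyclic AMP response element (CRE) TGACGTCA, the AP-1 site TGANTCA, the E-box CACGTG and the p53 half-site, given by name. A match is a description of the letters and not evidence of a bound site.

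Gadd45a and Gadd45g shared the octamer, which lay 105 to 98 bases before the start in Gadd45a and 124 to 117 bases before it in Gadd45g. Of 33469 promoters in the table, 1.56% held it. In both genes a CCAAT box followed the octamer, after a gap of 3 bases in Gadd45a and 17 bases in Gadd45g. The octamer is the motif of Oct-1 and the CCAAT box that of NF-Y. Both motifs together were in 259 promoters (0.774%), and the CCAAT box alone or with other motifs was in 34%. Gadd45b had no octamer in this window. It had 2 CCAAT boxes, 131 to 127 and 92 to 88 bases before the start, and 3 GC boxes. The GC boxes began 151, 83 and 47 bases before the start. The GC box was in 30.5% of promoters and in Gadd45a once, 170 to 165 bases before the start. Gadd45g alone of the 3 had an exact match to the TATA box TATAAA, 48 to 43 bases before the start, found in 12.9% of promoters. Gadd45b has the similar letters tataag after its last GC box, which the search did not count. The E-box was in Gadd45b, 178 to 173 bases before the start, and in Gadd45g, 163 to 158 bases before it, against 5.59% of promoters. Gadd45a held a p53 half-site 48 to 39 bases before the start (6.64% of promoters). Matches to the CRE (1.59% of promoters) and the AP-1 site (6.34%) were absent from these 3 windows, which says nothing about the factors. The GC content was 59.6% in Gadd45a, 66% in Gadd45b and 66% in Gadd45g, and the median over all promoters in the table was 51.2%.

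**Figure D1:**
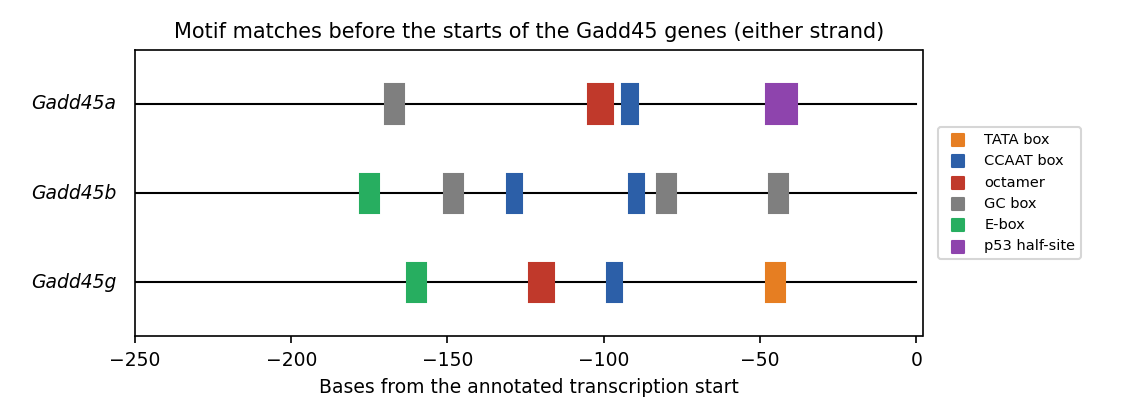
Motif matches on either strand in the 250 bases before the start of each Gadd45 gene. The horizontal axis gives bases from the annotated start, and each colored box is 1 match. Gadd45a and Gadd45g share an octamer followed by a CCAAT box, and Gadd45b has 2 CCAAT boxes and 3 GC boxes.

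The Control libraries, in the order of their replicate numbers, held 10430924, 10902792 and 12737131 reads assigned to genes, and the STZ libraries held 13921413, 11658253 and 15191349. Values are given as normalized counts, which are reads scaled by the effective library size of each sample to the mean effective size. The table was checked for markers of the labelled cell type. Of 10 epithelial markers 6 were in the table, and 3 had enough reads to be tested. Krt8, a keratin of simple epithelia, was the most abundant with a mean of 17134 normalized counts. Krt18, its usual partner, had at most 3 reads in any sample, Cldn3 at most 1, and Krt19, Epcam, Cldn1 and Ocln had no row in the table used here. Rows were matched by symbol, and 2871 rows carry only an Ensembl identifier that was not matched to a name, so a gene without a row of its symbol has no level here and was not analysed. Summed over the list, epithelial markers were at 1706, 1791 and 1793 CPM (reads scaled to a fixed library total) in the Control samples and at 2287, 2291 and 2285 CPM in the STZ samples, so all STZ samples were higher. The sum followed Krt8 (log2 fold change 0.48) and the junction gene Tjp1 (0.15), whereas Cdh1, the third marker tested, was lower at -0.69 with at most 35 reads and overlapping groups. Of 8 proximal tubule markers 6 had a row, with Ggt1 as the most abundant. Lrp2 and Slc34a1, which define the mature proximal tubule, had at most 4 and 2 reads, and Slc22a6 and Slc22a8 had no row. The summed level of this list was 59.0, 60.4 and 57.7 CPM in Control and 74.9, 82.5 and 87.1 CPM in STZ. It followed Ggt1, which was higher at 0.73 on the log2 scale, while Aqp1, the other marker tested, was lower at -1.25. Tjp1, Cdh1 and Aqp1 were chosen after their values were seen.

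Markers of other cell types were looked up in the same way. Of 8 fibroblast markers 7 had a row, Col3a1 was the most abundant, and Col1a2, Lum and Thy1 had at most 2 reads, while Dcn had no row. The 3 tested were all lower on the log2 scale, Col3a1 at -1.35, Pdgfrb at -0.33 and Col1a1 at -0.27 with overlapping groups. Col1a1 had at most 414 reads and Pdgfrb at most 256. Their summed level was 111, 102 and 99.7 CPM in Control and 64.4, 66.8 and 56.2 CPM in STZ, so it was lower in every STZ sample. The 4 leukocyte markers with a row, of 6 listed, summed to 2.17, 1.45 and 2.03 CPM in Control and 2.83, 2.26 and 2.54 CPM in STZ. Cd68 led this list and was its only gene tested. It did not pass, at 0.40 on the log2 scale with at most 29 reads and overlapping groups. Ptprc had at most 1 read, and Itgam had no row. The 5 endothelial markers summed to 4.15, 2.64 and 2.96 CPM in Control and 2.40, 1.65 and 2.14 CPM in STZ, with Vwf as the most abundant and at most 2 reads of Pecam1 and Cdh5. The groups did not overlap in any of the 5 sums. The epithelial, proximal tubule and leukocyte sums were higher and the fibroblast and endothelial sums lower in STZ. Of all genes tested, 28.6% had every STZ sample above every Control sample. The leukocyte and endothelial sums rest on few reads, with at most 29 of Cd68 and 36 of Vwf in any sample. The part of these 5 sums in the Gadd45 differences was not tested. In bulk RNA, fewer cells of a type and less RNA per cell cannot be told apart.

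After STZ the RNA of Gadd45g rose most, that of Gadd45a rose less, and Gadd45b did not pass the test. Gadd45g, the member tied to growth arrest and to cytokine responses, had 354, 321 and 353 normalized counts in Control replicates 1, 2 and 3. The STZ replicates had 807, 875 and 831 in the same order. Each STZ sample was far above each Control sample, and the lowest sample was Control replicate 2. The unscaled reads behind these values were 302, 284 and 364 in Control and 892, 809 and 1000 in STZ. The mean was 343 ± 18.7 in Control and 837 ± 34.4 in STZ (SD, n = 3 each), a 2.44-fold difference. The log2 fold change was 1.28 with a standard error of 0.06 and a 95% interval of 1.16 to 1.41 (edgeR quasi-likelihood adjusted p = 5.97e-21, by Benjamini-Hochberg over all genes tested), and 3 of 3 STZ samples were higher. Gadd45g ranked 162 from the top of the 11870 genes by log2 fold change. It is among the p53 pathway genes that the study labelled in a plot of these same samples, so its rise here is no independent evidence.

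Gadd45a, the founding member and a regulator of the G2 checkpoint, had 398, 398 and 403 normalized counts in Control replicates 1, 2 and 3. The STZ replicates had 480, 540 and 503 in the same order. The Control samples were almost level, the STZ samples were spread more widely, and the groups did not overlap. The difference in spread, from 3 samples each, was not tested. The unscaled reads were 339, 352 and 415 in Control and 530, 499 and 606 in STZ. The mean was 399.7 ± 2.74 in Control and 507 ± 30.3 in STZ (SD, n = 3 each), a 1.27-fold difference. The log2 fold change was 0.34 with a standard error of 0.07 and a 95% interval of 0.21 to 0.48 (edgeR adjusted p = 3.99e-05), with 3 of 3 STZ samples higher but under the fold-change threshold of 1. Gadd45a ranked 1620 of the 11870 genes. In the GRCr8 annotation its span overlaps the long non-coding RNA LOC100912188, which had no row of that name. The library kit kept strand, but the sources used here do not say whether the counting used it, and reads of this pair may be mixed.

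Gadd45b, the member induced by NF-kB and TGF-beta, had 933, 932 and 924 normalized counts in Control replicates 1, 2 and 3. The STZ replicates had 1032, 1051 and 903 in the same order. STZ replicates 1 and 2 were above all Control samples and STZ replicate 3 was below all of them, so the groups overlapped. The unscaled reads were 795, 823 and 952 in Control and 1141, 972 and 1087 in STZ. The mean was 929 ± 4.76 in Control and 995 ± 80.8 in STZ (SD, n = 3 each). The log2 fold change was 0.09 with a standard error of 0.05 and a 95% interval of -0.01 to 0.20 (edgeR adjusted p = 0.140), which did not pass. The call depended on STZ replicate 3, without which the log2 fold change was 0.17 (edgeR adjusted p = 0.0136, with a range of 0.0136 to 1 over the alternatives).

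**Figure D2:**
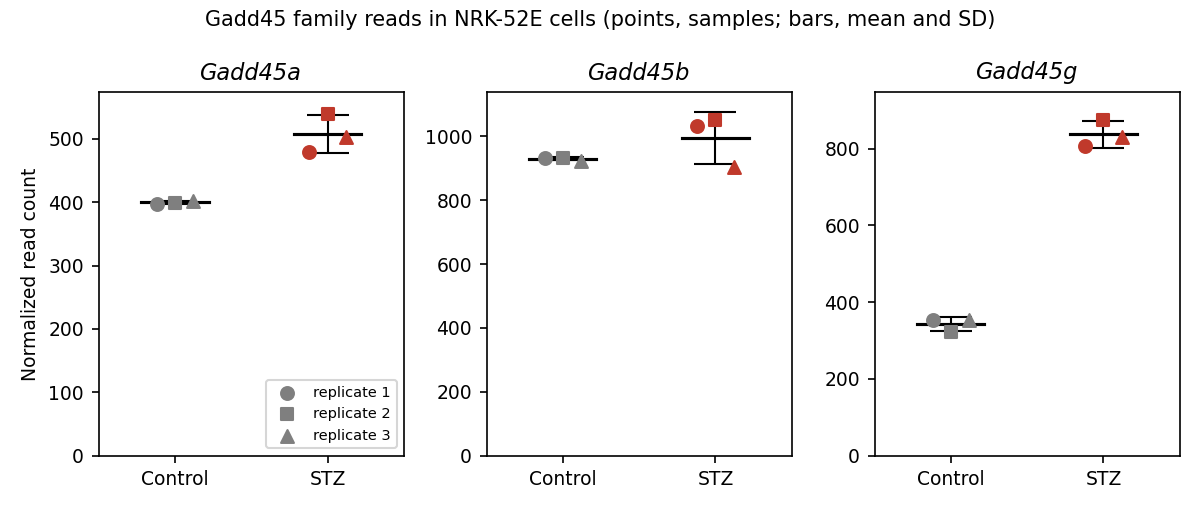
Normalized read counts of Gadd45a, Gadd45b and Gadd45g (vertical axes, each from 0) in Control and STZ samples. Each point is 1 sample, its shape gives the replicate number, and the bars give the mean and SD of 3 samples. STZ samples lie above all Control samples for Gadd45a and Gadd45g, and the groups overlap for Gadd45b.

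With an adjusted p under 0.05, 2 of the 3 members were higher, against 25.9% of all genes tested, while 25.1% of all genes were lower. With a log2 fold change over 1 as well, 1 of the 3 was higher, against 2.26% of all genes. Groups without overlap and with STZ on top were seen in 2 of the 3 members and in 28.6% of all genes. The median log2 fold change over all genes was -0.01. As a percentage of the mean, the SD of Gadd45a was 0.685% in Control and 5.97% in STZ, that of Gadd45b 0.512% and 8.12%, and that of Gadd45g 5.45% and 4.11%. Differences between these percentages were not tested. Levels were not compared between the genes, because reads per gene also depend on transcript length, which was not used here.

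The ratio of a pair of members within a sample removes the library scaling and sets their responses side by side. The ratio of Gadd45g to Gadd45a was 0.891, 0.807 and 0.877 across the Control replicates and 1.68, 1.62 and 1.65 across the STZ replicates. The ratio was higher in each STZ sample than in each Control sample. These ratios are of reads, not of levels per length, so only their difference between the groups is read here. On the log2 scale the mean ratio was -0.22 ± 0.08 in Control and 0.72 ± 0.03 in STZ (SD, n = 3 each), a difference of 0.95 (standard error 0.05; exact two-sided permutation p = 0.1). The ratio of Gadd45g to Gadd45b was 0.380, 0.345 and 0.382 in Control and 0.782, 0.832 and 0.920 in STZ, again without overlap. The log2 difference of this ratio was 1.19 (standard error 0.08; exact two-sided permutation p = 0.1). The ratio of Gadd45b to Gadd45a was 2.35, 2.34 and 2.29 in Control and 2.15, 1.95 and 1.79 in STZ. Every STZ sample was lower, with a log2 difference of -0.25 (standard error 0.08; exact two-sided permutation p = 0.1). With 3 samples against 3 the smallest p this test can give is 0.1, and adjusted over the 3 ratios it was also 0.1. None of these differences could pass 0.05 by this test, so it cannot decide whether the responses differed. The ratios describe these samples only.

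**Figure D3:**
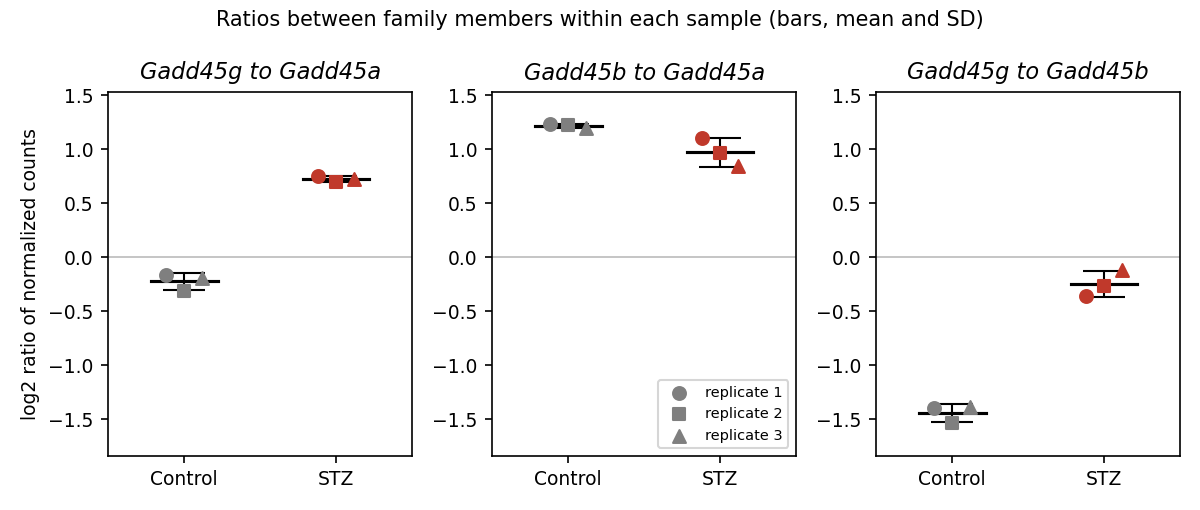
Log2 ratios of normalized counts between Gadd45 genes within each sample (vertical axes) in Control and STZ. Each point is 1 sample, its shape gives the replicate number, and the bars give the mean and SD of 3 samples. Both ratios with Gadd45g on top are higher in each STZ sample, and the ratio of Gadd45b to Gadd45a is lower.

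The genes with the profile most like each member were found among 9802 genes over the 6 samples, by the distance between log2 CPM profiles centred on their own mean. Those near Gadd45g included Ptpn6, a tyrosine phosphatase (distance 0.07 log2 units, log2 fold change 1.33) and Sesn2, a stress-induced inhibitor of mTORC1 (distance 0.14, log2 fold change 1.30). For Gadd45a they were Ubxn4 (distance 0.03, log2 fold change 0.36), Pml (distance 0.04, log2 fold change 0.32) and Dnm2 (distance 0.05, log2 fold change 0.33). Those near Gadd45b included Jrk (distance 0.06, log2 fold change 0.13) and B3gat3 (distance 0.07, log2 fold change 0.10). The distances follow from how large each change was and how the samples of a group were spread.

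Of the 12 genes listed for proteins that bind Gadd45 proteins or take part in their reported actions, 2 were higher, 6 were lower and 4 did not pass. Over all genes tested, 25.9% were higher and 25.1% lower, and the counts of this and each later list are to be read against these shares. The median log2 fold change of the 12 genes was -0.11, and that of all genes was -0.01. Cdkn1a, which encodes p21, had 2871, 2838 and 2940 normalized counts across the Control replicates and 15824, 16302 and 16336 across the STZ replicates. The groups were far apart and each was tight. The log2 fold change of Cdkn1a was 2.49 with a standard error of 0.04 (edgeR adjusted p = 1.05e-39). Pcna, the sliding clamp of DNA replication and repair, had 3317, 3594 and 3455 normalized counts in Control and 2125, 2019 and 2095 in STZ. All STZ samples were lower, with a log2 fold change of -0.73 and a standard error of 0.04 (edgeR adjusted p = 3.7e-19). The RNAs of p21 and PCNA, both partners of Gadd45 proteins, thus moved in opposite directions.

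The kinase Map3k4, which Gadd45 proteins switch on, had 559.6 ± 8.93 normalized counts in Control and 539 ± 24.3 in STZ (SD, n = 3 each), a log2 fold change of -0.06 that did not pass. Map2k7, a JNK kinase that Gadd45b inhibits, was lower, with a log2 fold change of -0.16 (edgeR adjusted p = 0.0329) and overlapping groups. Mapk14 (p38 alpha) had a log2 fold change of 0.03 and did not pass. Of the mitotic partners, Ccnb1 (cyclin B1) was lower at -0.22, Cdk1 had -0.05 and did not pass, and Aurka (Aurora A) was higher at 0.14 on the log2 scale. Npm1, which encodes nucleophosmin, was lower at -0.29. Tdg, a glycosylase that removes thymine from mismatches, was lower at -0.25, and Ercc5, the nuclease XPG of nucleotide excision repair, at -0.35. Gadd45gip1, which encodes a mitochondrial protein that binds Gadd45 proteins, had 0.03 and did not pass.

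**Figure D4:**
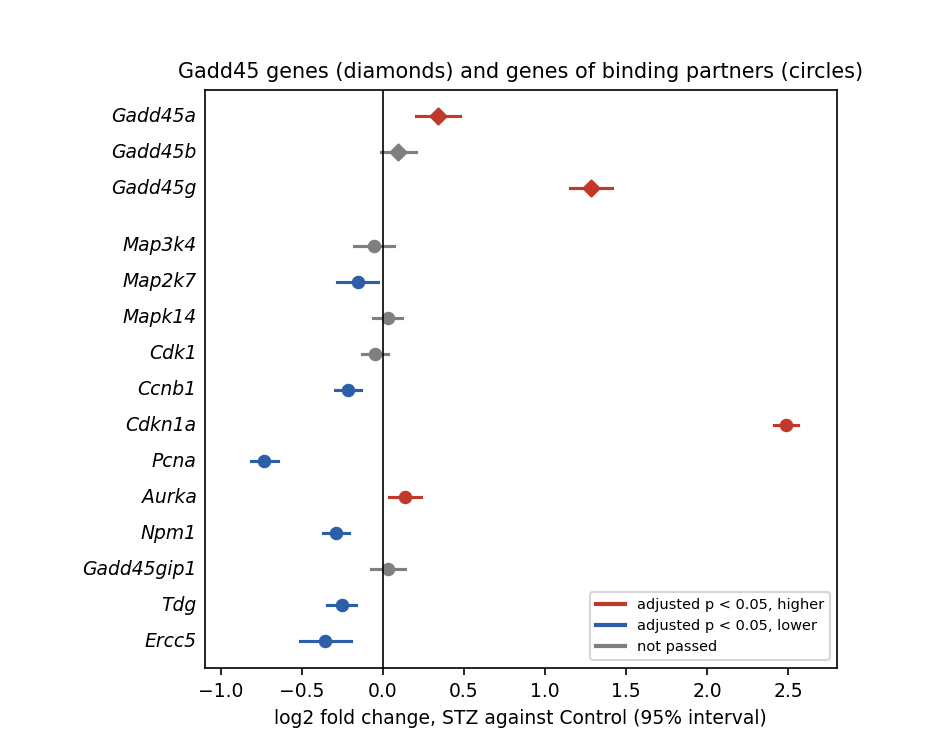
Log2 fold changes of STZ against Control with 95% intervals (horizontal axis) for the 3 Gadd45 genes and 12 genes of binding partners. Colors give genes higher, genes lower and genes that did not pass an adjusted p of 0.05. Cdkn1a and Gadd45g lie farthest to the right and Pcna farthest to the left.

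Upstream of p38 and JNK and in their cascade, 18 genes were listed and 15 were tested, of which 3 were higher, 3 were lower and 9 did not pass, so neither direction was above its share over all genes (25.9% higher, 25.1% lower). The median log2 fold change was -0.04. Map2k3, a p38 kinase, was higher at 0.34, and Mapk8, which encodes JNK1, was lower at -0.32. Map2k6, another p38 kinase, had a mean of 23.0 ± 4.49 normalized counts in Control and 4.85 ± 1.55 in STZ (SD, n = 3 each). The log2 fold change of Map2k6 was -2.18 with a standard error of 0.38 (edgeR adjusted p = 5.77e-06), from at most 24 reads in any sample. Of 7 genes for phosphatases that switch p38 and JNK off, 5 were tested, and 3 were higher while 2 did not pass, with a median of 0.22. Dusp8 was higher at 0.67, Dusp4 at 0.66 and Ppm1d, which encodes Wip1, at 0.22. The groups of Ppm1d overlapped.

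Of 14 genes for entry into mitosis, the step at which Gadd45 proteins act on Cdk1, 12 were tested, and 3 were higher, 6 were lower and 3 did not pass, against shares over all genes of 25.9% higher and 25.1% lower. The lower genes made up more of the list than of all genes, a difference not tested. The median log2 fold change was -0.13. Ccna2 (cyclin A2) was lower at -0.52 and Plk1 (Polo-like kinase 1) at -0.44, while Cdc25c, a phosphatase that activates Cdk1, was higher at 0.45. For DNA demethylation and base excision, where Gadd45a is reported to act as an adapter, 12 genes were listed and 9 were tested. Of these, 6 were lower and 3 did not pass, with a median of -0.25. Ing1, a chromatin reader that recruits Gadd45a, was lower at -0.55, Apex1, the abasic site endonuclease, at -0.29 and Tdg at -0.25.

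Among 16 genes for regulators of Gadd45 transcription, all were tested, and 4 were higher, 8 were lower and 4 did not pass, with a median of -0.16. Set against 25.9% higher and 25.1% lower over all genes, the lower genes again took more of the list, which was not tested. Egr1, an immediate early factor, had 534 ± 12.1 normalized counts in Control and 269 ± 13.7 in STZ (SD, n = 3 each), a log2 fold change of -0.99. Atf3, a stress-induced factor, rose from 34.7 ± 2.34 normalized counts in Control to 114 ± 11.8 in STZ (SD, n = 3 each), a log2 fold change of 1.71. Nfyc, which encodes a subunit of the CCAAT-binding factor NF-Y, was lower at -0.43. The other NF-Y subunits, Nfya at -0.16 and Nfyb at -0.25 with overlapping groups, were lower too, and Pou2f1, which encodes Oct-1, had -0.16 and did not pass. These last 3 genes were chosen after their values were seen, because their motifs stand in the promoters shown.

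Of 16 p53 target genes, 15 were higher and 1 did not pass, and 12 of the 15 also had a log2 fold change over 1, against 2.26% of all genes. The median log2 fold change was 1.55. The same plot of the study labelled several of them, so the count is no independent evidence of direction. Cdkn1a led by p-value, followed by Mdm2, the ubiquitin ligase that restrains p53, at 1.95 and Ccng1 (cyclin G1) at 1.66. Sesn1, the gene that did not pass, had -0.18. The rise of Gadd45g (1.28) lay below the median of this list, and that of Gadd45a (0.34) was near its lower end, where Rrm2b had 0.21. Sesn1 and Rrm2b were chosen after their values were seen. Of 3 other genes named for induction by DNA damage, 2 had a row. Ddit3 (CHOP) was higher at 0.84 and Ddit4 (REDD1) at 0.76, with a median of 0.80, and Ppp1r15a (GADD34) was not analysed here.

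Gadd45 proteins share the fold of the ribosomal L7Ae family. Of 7 genes for other proteins of this fold, 2 were lower and 5 did not pass, with a median log2 fold change of -0.03. Secisbp2, which binds selenoprotein mRNAs, was lower at -0.38 and Snu13, a spliceosome protein, at -0.18, while Rpl7a had -0.05 and did not pass.

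**Figure D5:**
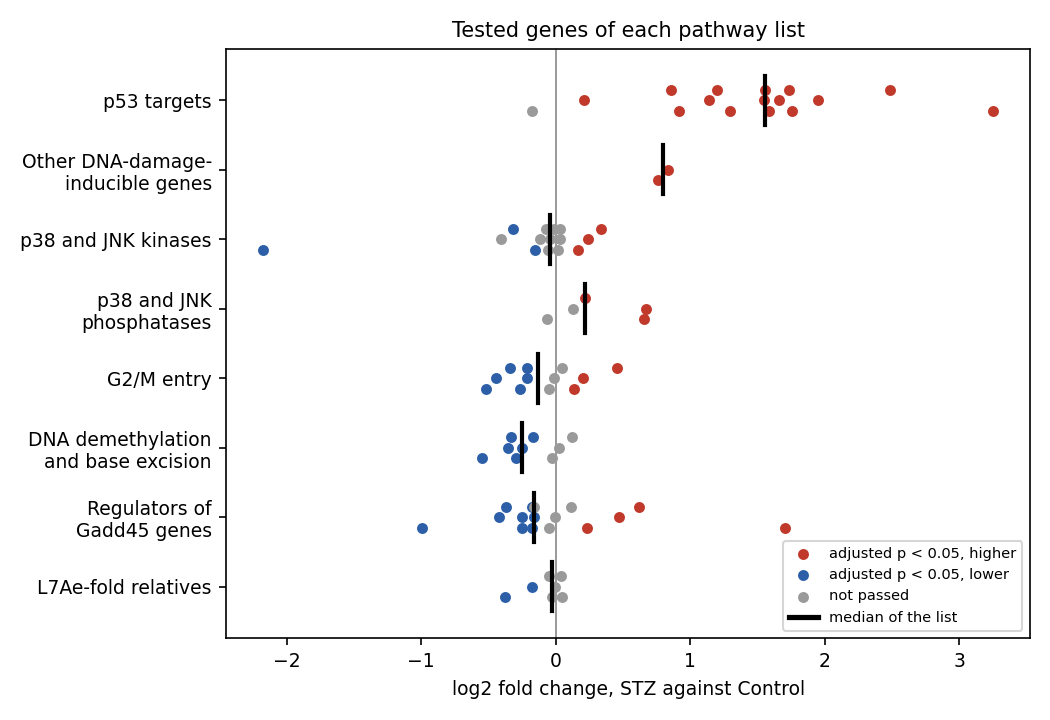
Log2 fold changes of STZ against Control (horizontal axis) for the tested genes of each list (rows). Each point is 1 gene, colored by its call at an adjusted p of 0.05, and black bars give the median of the list. The p53 targets lie to the right, with a median of 1.55, and the medians of the kinase, mitosis, demethylation, regulator and L7Ae-fold lists lie between -0.25 and -0.03.

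Of the genes on either side of the Gadd45 genes in the GRCr8 annotation, 3 had enough reads to be tested, too few to set against the shares over all genes. Next to Gadd45a, Serbp1 was lower at -0.37 and Gng12 had a log2 fold change of -0.10 and did not pass. Next to Gadd45b, Lmnb2, which encodes lamin B2, was lower at -0.67, and Gng7 was not analysed here. Diras2 and Sema4d, next to Gadd45g, had at most 1 and 6 reads in any sample and were not tested.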

How the data were processed

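Total RNA of NRK-52E cells was made into stranded mRNA libraries and sequenced by the authors. They aligned reads with STAR 2.7.10a to rat build Rnor6, assigned uniquely mapping reads to genes with featureCounts (Subread) and deposited raw counts for 3 Control and 3 STZ samples. Here edgeR 4.0.16 (R 4.3.3) was used for TMM scaling, a filter on low counts (filterByExpr, defaults) and quasi-likelihood testing. The fit covered all genes, with Benjamini-Hochberg adjustment over the 11870 genes tested and no block. Genes were called at an adjusted p under 0.05, and also with an absolute log2 fold change over 1, as in the study. The steps were tested on simulated counts. Standard errors were derived from the F statistic and the log2 fold change. Ratios between members were tested by exact two-sided permutation. A list gene with several rows was taken from the row with most reads. The lists overlap, and genes such as Cdkn1a, Ccnb1, Map2k7, Tdg and Ercc5 are counted in each list that holds them. The genes named were the 3 members, all partners, the 3 genes of each other list with the smallest p, the 3 genes most like each member (at least 50 normalized counts on average) and, of the markers, the most abundant and those without a row. The other markers named, with few reads or tested, were chosen after their values were seen. Some genes that this rule names are not reported here. Genes beside or overlapping the members were named by their position, and other genes are marked where they appear. The members and lists were chosen with earlier results of these data known. Total counts between 10430924 and 15191349 set the precision for genes with few reads. Promoters came from RefSeq (GRCr8) by symbol. Alternatives were other filters, scalings, tests (DESeq2 1.42.0, limma 3.58.1), the replicate block and each sample left out.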

Additional observations from a re-analysis of the deposited data

How the results depend on the processing

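Under 17 alternatives, 262 of 277 outcomes kept both direction and call or, for counts, stayed within 1.5 times the value given. The log2 fold change of Gadd45g stayed between 1.24 and 1.31, with an adjusted p of at most 9.96e-04 (edgeR's glmTreat). That of Gadd45a lay between 0.30 and 0.38 and kept its call except under edgeR's glmTreat against a log2 fold change of 1, where it was 0.34 with an adjusted p of 1. That of Gadd45b lay between 0.0576 and 0.166 when each sample was left out, and passed without STZ replicate 3 (0.17, edgeR adjusted p = 0.0136). Under glmTreat 92 genes were higher and 20 lower over all genes, with or without the fold-change threshold, against 3070 and 2976 by the adjusted p alone and 268 and 132 past both thresholds. The same setting called 1 partner, 1 gene of the p38 and JNK cascade, 1 regulator and 11 p53 targets. It called 0 phosphatases, 0 mitosis genes, 0 other DNA damage-inducible genes, 0 demethylation genes and 0 L7Ae-fold genes, also at an unadjusted p under 0.05, where the other settings called up to 3, 9, 2, 7 and 3. These losses follow from the stricter threshold. With at least 10 counts in every sample, 160 genes were higher past both thresholds. With the replicate number as a block (replicate block), Gadd45a had 0.34, Gadd45b 0.09 and Gadd45g 1.28, and no call of a member changed. Deviations of samples with the same number correlated at 0.04, -0.02 and 0.12 over 9989 genes. For samples with different numbers the correlations lay between -0.13 and 0.09. These values cannot tell whether samples with the same number were handled together. The 3 ratios kept their direction under each alternative run. Levels per kilobase were not run, since no transcript lengths were used here. Depth limits genes with few reads, such as Map2k6.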

Other observations

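The octamer and the CCAAT box of the Gadd45a and Gadd45g promoters were looked up in the other genes tested, after the values had been seen and with no test. Of 8134 tested genes with 1 promoter in the RefSeq table, 27.1% were higher and 25.8% lower after STZ, with a median log2 fold change of 0.00. Genes with both motifs numbered 48, of which 22 were higher (45.8%) and 8 lower (16.7%), with a median of 0.14. Without Gadd45a and Gadd45g and a histone gene, 20 of 45 were higher and 8 lower, with a median of 0.13. The largest log2 fold changes among them were 2.12 for Eda2r, a receptor of the TNF receptor family, 1.80 for Plet1, from few reads, and 1.63 for Tnfaip6, a hyaluronan-binding protein. The lowest among those called lower were -0.62 for Med16, a Mediator subunit, -0.52 for Hspa2, a heat shock protein, and -0.35 for Fkbp5, a glucocorticoid receptor co-chaperone. Of 40 genes with the octamer and no CCAAT box, 8 were higher (20%) and 14 lower (35%). All genes with the octamer numbered 88, of which 34.1% were higher and 25% lower. Genes with a CCAAT box numbered 2966, of which 26.2% were higher and 27.6% lower.

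The other motifs can be read against the same shares of 27.1% higher and 25.8% lower. The TATA box stood in 448 tested genes (32.8% higher, 22.3% lower), the E-box in 712 (28.9% higher, 25.7% lower), the GC box in 5013 (27.8% higher, 26.2% lower) and the p53 half-site in 464 (30.2% higher, 19.4% lower). Of the motifs absent from the 3 Gadd45 windows, the CRE stood in 247 tested genes (30.8% higher, 23.9% lower) and the AP-1 site in 330 (42.4% higher, 17% lower).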
